A study of Sus scrofa and Bos taurus with 31 samples.

Results

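The genes described here encode nuclear-made parts of the mitochondrial respiratory chain and ATP synthase in the pig, but not the whole chain. They were chosen by name alone, as the protein-coding genes on nuclear chromosomes of the Sscrofa11.1 RefSeq annotation whose symbol starts with NDUF, UQCR, SDHA to SDHD or ATP5. The rule found 73 of 19560 such genes, spread over 18 chromosomes. Of these, 47 carried NDUF symbols, 7 SDH symbols, 2 UQCR symbols and 17 ATP5 symbols. By role, 7 encode core subunits of complex I, 30 its accessory subunits and 8 its assembly factors. A further 4 encode subunits of complex II and 3 its assembly factors, and 2 encode subunits of complex III. Many symbols of complex III were not matched in this annotation, and the rule has no prefix for complex IV or cytochrome c. The 17 ATP5 genes comprise 5 for the catalytic F1 head, 3 for the c ring, 4 for the peripheral stalk, 3 for other membrane subunits and 2, ATP5S and ATP5SL, that are not subunits of the enzyme. NDUFA4 and its paralog NDUFA4L2 complete the set.

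Complex I takes electrons from NADH and complex II from succinate, complex III passes them to cytochrome c, and the proton gradient that results drives ATP synthase. Mitochondrial DNA encodes a few of the membrane subunits, and all the others are made from nuclear genes. Nearly every cell needs them, and their promoters are known as CpG-rich promoters bound by factors such as NRF1, GABPA, YY1 and, in tissues of high oxidative demand, the estrogen-related receptors. Skeletal muscle and brain are among the tissues that use most oxygen, and the question put to the data was whether chromatin at these genes differed there from other tissues.

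Accessible chromatin was mapped with ATAC-seq, where a transposase cuts and tags open DNA. The 16 pig libraries came from 8 tissues (skeletal muscle, cerebellum, cerebral cortex, hypothalamus, adipose, liver, lung and spleen) of the same 2 animals, P348 and P350, which the study describes as castrated male Yorkshire littermates. Each tissue is therefore represented by 2 related animals, and whole tissue was used, so that a different share of a cell type and a different accessibility within a cell type cannot be told apart. The peak lists held 99960 to 217308 peaks per library, covering 64.1 to 156 Mb, and the 2 cerebellum lists were the longest. The lists hold no read depth, and the read totals in the study's supplement were not used here.

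The tissue labels were checked against marker genes through the peak bases within 10 kb of each gene, per Mb of all peak bases in the library. All 10 skeletal muscle markers were highest in muscle, with a summed level of 1988 bases per Mb against 196 to 243 in the other tissues. All 6 glia markers and 4 of 6 neuron markers were highest in a brain tissue, as were 3 of 4 liver markers in liver, 2 of 4 lung markers in lung and 3 of 5 spleen and leukocyte markers in spleen. None of the 4 adipose markers (ADIPOQ, PLIN1, LEP and CIDEC) was highest in adipose.

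Promoters of the set were open in every tissue. A peak lay within 2 kb of a transcription start site (TSS) for all 73 genes in 14 of the 16 libraries, for 72 in adipose of P350 and for 70 in cerebellum of P348. The mean share was 99.7% ± 1.06 (SD, n = 16 libraries), and the same share over all protein-coding genes ranged from 72.9% to 84.3%. In both muscle libraries it was 100% for the set against 74% and 77.5% for all genes. A promoter peak in all 16 libraries was found for 69 of the 73 genes (94.5%), where 57.2% of all protein-coding genes had one. Each of the other 4 lacked it in 1 library only. With peaks listed at a q-value under 0.0001 the mean share was 95% ± 9.71 (SD, n = 16 libraries), so libraries differed more. The share over all genes at this threshold is not given here.

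The 4 genes with a missing peak differed in their signal elsewhere. Signal is given here as fold enrichment, the authors' ratio of signal to local background averaged over the peak. NDUFS7, a core subunit that carries the last iron-sulfur cluster of complex I, lacked a peak in cerebellum of P348 and had a fold of 3.23 in cerebellum of P350. ATP5L, a membrane subunit of ATP synthase, and NDUFA1, an accessory subunit encoded on the X chromosome, were missing in the same library, with a fold of 3.48 and 3.39 in the cerebellum of P350. NDUFA4L2 lacked a peak in adipose of P350 and had a fold of 2.29 in adipose of P348. For ATP5L and NDUFA1 these were the lowest of the 15 values, which reached 5.93 and 5.80, whereas NDUFS7 was lower in adipose, at 2.25 and 2.40.

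Median promoter fold of the set ranged from 4.31 to 8.21 between libraries. In each of the 16 libraries it was above the median over all genes with a promoter peak, by a ratio of 1.11 to 1.42. The peaks were at the same time narrower than the median of all genes in 14 of 16 libraries, with set medians of 684 to 1183 bp, and muscle was the exception in both animals (1183 against 1135 bp in P348, 1045 against 1043 bp in P350). For 55 of the 73 genes the median peak centre over libraries fell within 200 bp of the nearest annotated TSS, and for 71 within 500 bp. Peaks were picked within 2 kb of a TSS, so closeness is partly built in. The same share over all genes is not given here.

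**Figure D1:**
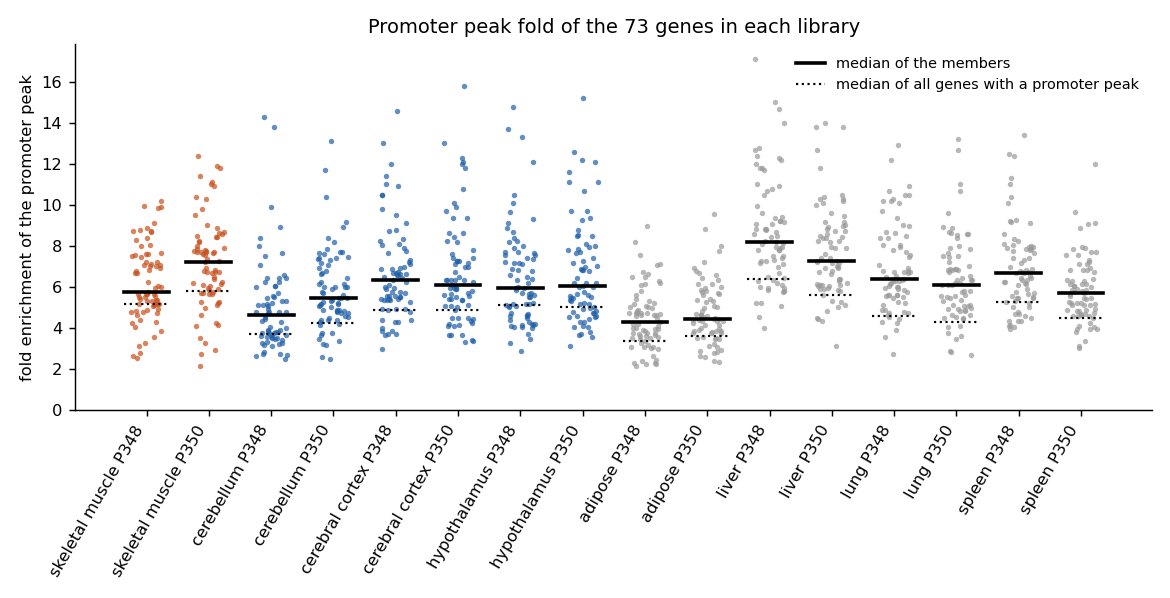
Fold enrichment of the promoter peak (y axis, authors' ratio of signal to background) for each of the 73 genes (points) in the 16 libraries (x axis; muscle orange, brain blue, other tissues grey), with the median of the set (solid line) and of all genes with a promoter peak (dotted line). The solid line is above the dotted line in every library, and set medians run from 4.31 in adipose of P348 to 8.21 in liver of P348.

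Members differed widely among themselves. The highest mean folds over the 16 libraries were 12.2 for ATP5SL, 11.6 for NDUFA5 and 10.7 for NDUFAB1, the mitochondrial acyl carrier protein that is also a complex I subunit. NDUFA5, an accessory subunit of the matrix arm, ranged from 8.97 in adipose of P348 to 17.1 in liver of P348, so its lowest value exceeded the highest library median of the set. The lowest means among genes with a peak everywhere were 3.25 for ATP5D, the delta subunit of the F1 head, 3.79 for the assembly factor NDUFAF3 and 4.21 for NDUFA10. ATP5D ranged only from 2.23 to 4.55. By role, the median of the mean folds was 5.33 for core subunits of complex I (n = 7), 5.99 for accessory subunits (n = 30), 7.53 for its assembly factors (n = 8) and 6.57 for complex II subunits (n = 4). Over all 73 genes it was 6.03, and over the 11195 genes of the annotation open in all 16 libraries 5.52.

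Paralogs within the set were unequal too. NDUFA4, now counted as a subunit of complex IV, had folds of 5.24 to 10.3, with 8.29 and 8.49 in muscle. NDUFA4L2, its paralog known for induction in hypoxia, had folds of 2.16 to 4.01 in the 15 libraries with a peak, with 2.55 and 2.16 in muscle. The lowest value of NDUFA4 thus exceeded the highest of NDUFA4L2. Of the 3 genes for the c subunit, which all yield the same mature protein, ATP5G1 had a mean fold of 8.57, ATP5G3 5.84 and ATP5G2 5.30. ATP5G2 carried instead the widest promoter peaks, with a mean of 1407 bp against 1186 bp for ATP5G3 and 791 bp for ATP5G1.

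Promoter sequence was compared with that of other genes, without a test. In the window from 250 bases before to 50 bases after the most upstream TSS, the ratio of observed to expected CpG had a median of 0.834 for the set, 0.651 for all genes and 0.783 for genes open in all 16 libraries. GC content was similar, with medians of 59.3%, 58.7% and 62.3%. The AAGGTCA element of the estrogen-related receptors (searched, like all motifs, on both strands) lay in 10 of 73 windows (13.7%), in 3.79% of all promoters and in 3.05% of those open everywhere. The ETS motif bound by GABPA (CCGGAAG) lay in 17 windows (23.3%) against 11% of all and 15.8% of open promoters. The NRF1 motif (GCGCNTGCG) lay in 13 (17.8%) against 8.39% and 12.4%, and the YY1 motif (AAGATGGCG) in 6 (8.22%) against 1.48% and 2.27%. SP/KLF boxes (GGGCGG) were in 63% of the set and 65.4% of open promoters, and the TATA box (TATAAA) in 4.11% and 7.04%. The muscle E box (CAGCTG) lay in 8 windows (11%) against 16.6% of all and 14.7% of open promoters. No window of the set held the MEF2 motif (CTAAAAATA), beside 0.419% of all and 0.232% of open promoters. At such low shares its absence from 73 windows cannot be read as a trait of the set. These are matches to letters and do not show that a factor was bound.

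Head-to-head neighbours were frequent. A gene on the other strand started within 1 kb upstream of the most upstream TSS of 23 of the 73 genes (31.5%), where 11.9% of all genes and 17.9% of genes open in all 16 libraries had one. For 18 the partner was protein-coding (24.7%, against 8.6% and 13.3%). As examples picked after their values were seen, SDHD, a membrane anchor of complex II, starts 91 bp from TIMM8B, a chaperone of mitochondrial protein import, and NDUFB5 starts 23 bp from MRPL47, a protein of the mitochondrial ribosome. Where 1 peak covers both starts, its fold cannot be assigned to either gene.

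Promoter bases that carry these motifs are given on the strand of the gene, with matches in capitals, from Sscrofa11.1. ATP5A1, for the alpha subunit of the F1 head (chr1:95750836-95750985, minus strand), and ATP5G3 (chr15:81094298-81094447, minus strand) each hold an ETS motif and a receptor element in the 150 bases before the TSS. NDUFB4, an accessory subunit (chr13:139730493-139730642, minus strand), holds NRF1 motifs. For 2 head-to-head genes all bases between the starts are given: SDHD and TIMM8B (chr9:39790564-39790653, plus strand) with an ETS motif and a receptor element, and NDUFA5 and ASB15 (chr18:23881795-23881871, plus strand) with an NRF1 motif.
ATP5A1: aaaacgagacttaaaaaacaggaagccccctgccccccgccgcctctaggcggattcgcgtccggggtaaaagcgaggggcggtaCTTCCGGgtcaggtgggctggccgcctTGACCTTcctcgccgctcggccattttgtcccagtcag
ATP5G3: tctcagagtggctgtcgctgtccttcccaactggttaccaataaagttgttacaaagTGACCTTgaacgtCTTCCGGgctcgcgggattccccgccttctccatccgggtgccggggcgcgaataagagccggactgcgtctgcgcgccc
NDUFB4: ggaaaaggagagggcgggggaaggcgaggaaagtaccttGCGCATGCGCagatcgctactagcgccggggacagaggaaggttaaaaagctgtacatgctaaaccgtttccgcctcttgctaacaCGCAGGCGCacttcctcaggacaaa
SDHD: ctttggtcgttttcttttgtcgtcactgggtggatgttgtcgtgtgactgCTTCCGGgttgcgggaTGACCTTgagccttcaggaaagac
NDUFA5: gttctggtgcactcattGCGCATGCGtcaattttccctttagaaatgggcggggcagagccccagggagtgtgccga

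Skeletal muscle was compared with the other 7 tissues first by the width of the promoter peak, in the 69 genes with a peak in all 16 libraries. Width rose in muscle for 4 genes and fell for 0 (limma, Benjamini-Hochberg adjusted p under 0.05 over 11195 genes). Over all genes tested 2.84% rose and 2.18% fell, and 5.8% of the set rose. The 4 genes were NDUFC1, SDHB, NDUFA6 and ATP5G1. The median log2 difference of the set was 0.07, beside -0.03 for all genes. Without muscle of P348 the differences were 1.62 for NDUFC1, 1.29 for SDHB, 0.9 for NDUFA6 and 0.49 for ATP5G1. Without muscle of P350 they were 2.11, 1.11, 0.79 and 0.35.

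NDUFC1, a small accessory subunit of the complex I membrane arm (chr8:87695273-87700024, plus strand), changed most. Its promoter peak was 2809 bp wide in muscle of P348 and 1809 bp in muscle of P350, and the 14 other libraries ran from 383 bp in liver of P348 over a median of 508.5 bp to 711 bp in lung of P348. The groups did not overlap. The log2 difference was 1.87 ± 0.22 (SE, limma adjusted p = 0.000883). Of the 1809 bp covered in both muscle libraries, 346 bp were covered in all 14 others and 1272 bp in none of them. Those 1272 bp formed 1 stretch upstream, from -1524 to -253 bp relative to the TSS.

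SDHB, the iron-sulfur subunit of complex II (chr6:75648362-75678111, minus strand), widened on the other side of its start. The peak measured 2133 and 2193 bp in muscle, and 564 to 1086 bp with a median of 835 bp elsewhere, without overlap (log2 difference 1.2 ± 0.14 SE, limma adjusted p = 0.000759). The longest stretch found in both muscle libraries and nowhere else covered 545 bp in an intron, from 578 to 1122 bp after the TSS. Farther inside, separate small peaks were present in cerebellum of P350 and in both liver libraries.

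NDUFA6, an accessory subunit of the matrix arm, had widths of 1719 and 1676 bp in muscle against a median of 710 bp elsewhere, but adipose reached 1807 bp in P348, so the groups overlapped (log2 difference 0.85 ± 0.16 SE, limma adjusted p = 0.0157). Only 43 bp of its peak were absent from all other libraries. ATP5G1 measured 1145 and 1138 bp in muscle, just above the 1090 bp in adipose of P348 and well above the median of 710.5 bp (log2 difference 0.42 ± 0.10 SE, limma adjusted p = 0.036). Here 97 bp were found in muscle only. The differences of NDUFA6 and ATP5G1 lost their call when either muscle library was left out, and ATP5G1 also when 1 of several other libraries was left out. With the 8 tissue means as units, NDUFC1 alone kept its call (limma, adjusted p = 0.00603), and SDHB gave an adjusted p of 0.0634 in limma.

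**Figure D2:**
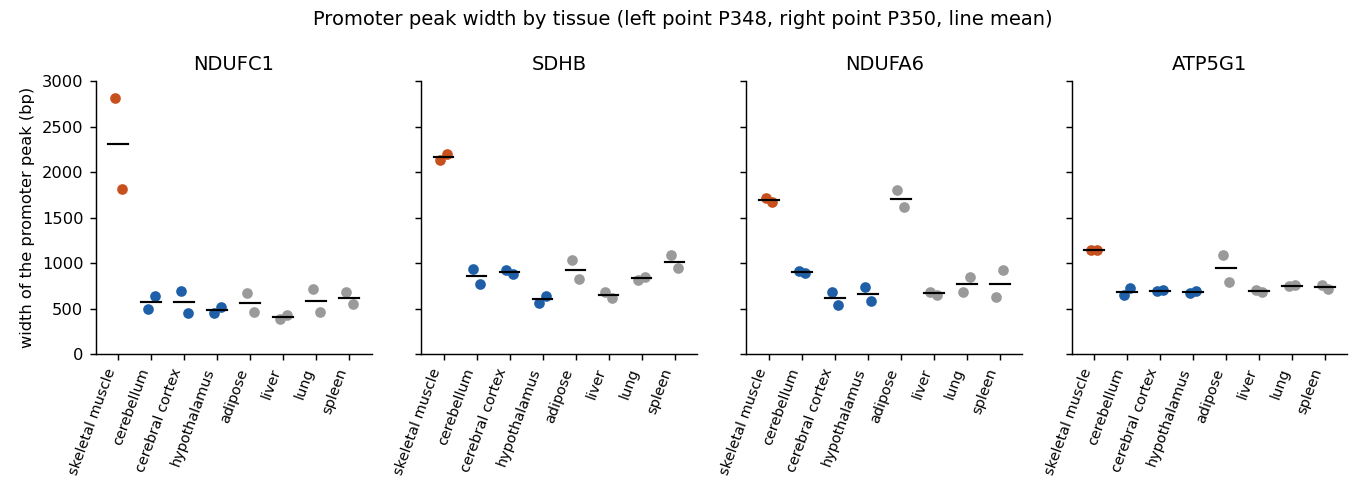
Width of the promoter peak in bp (y axis) for the 4 genes whose peak was wider in muscle, by tissue (x axis); points are the 2 animals, P348 left and P350 right, and lines are tissue means. NDUFC1 and SDHB in muscle stand above all other tissues, whereas NDUFA6 in adipose reaches the muscle values.

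The centres of the 2 long stretches are shown on the plus strand of Sscrofa11.1, as 200 bases each, because they lay in a peak in both muscle libraries and in no called peak elsewhere. They lie at chr8:87694285-87694484 upstream of NDUFC1 and at chr6:75677162-75677361 in the SDHB intron, and neither overlaps an exon. GC content was 26% and 37.5%. No match to the MEF2 motif, the muscle E box (CAGCTG) or the receptor element was found in either.
NDUFC1 stretch: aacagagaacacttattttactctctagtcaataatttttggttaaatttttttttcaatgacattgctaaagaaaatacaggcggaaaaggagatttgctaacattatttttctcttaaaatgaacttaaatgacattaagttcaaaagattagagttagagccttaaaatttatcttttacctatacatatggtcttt
SDHB stretch: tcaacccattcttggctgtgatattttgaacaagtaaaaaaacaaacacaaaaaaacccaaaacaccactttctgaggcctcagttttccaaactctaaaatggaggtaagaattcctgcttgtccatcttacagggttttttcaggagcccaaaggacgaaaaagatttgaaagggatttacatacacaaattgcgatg

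Promoter fold gave a different picture. After each library was centred on its median, fold was lower in muscle for 16 of the 69 genes (23.2%) and higher for 4 (5.8%, limma adjusted p under 0.05), where 18.8% of all genes were lower and 14.6% higher. Of the 16 lower genes, 13 had a positive width difference, with a median of 0.30 on the log2 scale, beside 0.05 for the 49 genes without a call. Fold is an average over the peak, and the part that width has in it was not tested. For NDUFC1 fold was 2.80 and 2.91 in muscle and 3.75 to 8.68 elsewhere (log2 difference -1.2 ± 0.11 SE, limma adjusted p = 2.48e-06). SDHB had 5.19 and 5.14 against a median of 6.93, but 3.82 in cerebellum and 4.67 in adipose of P348 were lower. NDUFA6 had 5.54 and 6.71 against 8.22, with 5.09 and 4.41 in adipose.

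Other genes with lower fold in muscle did not pass the test for width. NDUFAB1 had folds of 6.81 and 7.69 in muscle, and 4.72 in adipose of P348 to 14.3 in cerebellum of P348, with a median of 11.8 (centred log2 difference -0.78 ± 0.18 SE, limma adjusted p = 0.00341). Its peak was 1081 and 1040 bp wide in muscle and 1101 bp in adipose of P348, and 389 to 565 bp in brain. NDUFB10, an accessory subunit, had 3.11 and 3.27 against a median of 5.31 (-0.74 ± 0.10 SE, limma adjusted p = 6.93e-05). Before centring its folds in adipose, 2.64 and 2.65, were below those in muscle. SDHC, a membrane anchor of complex II, NDUFB5, ATP5D and ATP5B, the catalytic beta subunit, were lower by 0.45 to 0.62 on the centred log2 scale. The SDHC peak was 2325 and 2101 bp wide in muscle and at most 1300 bp elsewhere (width difference 1.15 ± 0.29 SE, limma adjusted p = 0.0513). The 4 higher genes were NDUFAF1, NDUFA3, NDUFB7 and SDHAF2. NDUFAF1, an assembly factor of complex I, had folds of 7.57 and 7.74 in muscle and a median of 4.63 elsewhere, with 8.49 in liver of P348 (0.45 ± 0.09 SE, limma adjusted p = 0.00184). Without centring 10 were higher and 5 lower, beside 29.3% and 5.47% of all genes, whose median difference moved from -0.02 to 0.18. With tissue means as units 1 gene was lower, NDUFC1 (limma, adjusted p = 0.0109), and 0 were higher, where 0.375% and 0.5% of all genes passed. Without muscle of P350 the differences were -1.16 for NDUFC1, -0.73 for NDUFA6 and -0.48 for SDHB. Without muscle of P348 they were -1.23, -0.57 and -0.62.

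The wider surroundings were measured as peak bases in the gene plus 10 kb on each side, per Mb of all peak bases in the library. By this measure 40 of the 73 genes (54.8%) were higher in muscle and 0 lower (limma, adjusted p under 0.05), beside 32.1% higher and 14.5% lower of 18131 genes tested. The median log2 difference was 0.73 for the set and 0.38 for all genes, so all genes shifted on this scale. Centred on genes open in all 16 libraries, 16 (21.9%) were higher and 4 (5.48%) lower, beside 12.9% and 24.3% of all genes, and the medians were 0.24 and -0.11. Groups did not overlap for 20 genes on the first scale, all higher in muscle, where 19% of all genes were higher without overlap. The direction changed with the peak threshold: with peaks at a q-value under 0.0001, 2 genes were higher and 11 lower, beside 9.98% and 14% of all genes. The median difference of all genes moved from 0.38 to -0.12, and the cause was not tested. Without muscle of P350 the count of higher genes was 14 (10.1% of all genes), without muscle of P348 23 (19.8%), and with tissue means as units 0 (1.01%).

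NDUFB2, an accessory subunit of the membrane arm, had the largest difference. Its window held 56.6 and 76.9 bases per Mb in muscle, and 5.24 in cerebellum of P348 to 34.8 in liver of P350, with a median of 16.3, elsewhere. The log2 difference was 1.76 ± 0.24 (SE, limma adjusted p = 8.43e-05), and 1.28 ± 0.22 (SE, limma adjusted p = 0.000628) after centring. NDUFB5 held 27.2 and 31.6 bases per Mb in muscle against 4.24 to 10.7 elsewhere (1.5 ± 0.20 SE, limma adjusted p = 5.79e-05). ATP5A1 held 62.4 and 57.3 against 8.89 to 39.9 (1.44 ± 0.20 SE, limma adjusted p = 0.000101). Muscle lay above every other library for these 3 genes.

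SDHA, the flavoprotein of complex II, held 144 and 117 bases per Mb in muscle, above the 108 in liver of P348. NDUFS6, a zinc-binding accessory subunit, held 50.1 and 89.0 against at most 42.6. ATP5SL held 209 and 221 against at most 149, but its annotated gene spans chr6:49404218-49562755 and overlaps CEACAM1 and LIPE, the hormone-sensitive lipase, so its window covers other genes. In NDUFA4L2, ATP5J2, NDUFAB1 and NDUFB7 muscle overlapped with at least 1 other library. ATP5A1 and SDHA turned to -0.31 and -0.03 on the log2 scale with peaks at a q-value under 0.0001. NDUFA4L2, NDUFAB1 and NDUFS6 lost their call without muscle of P350, and SDHA without muscle of P348.

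**Figure D3:**
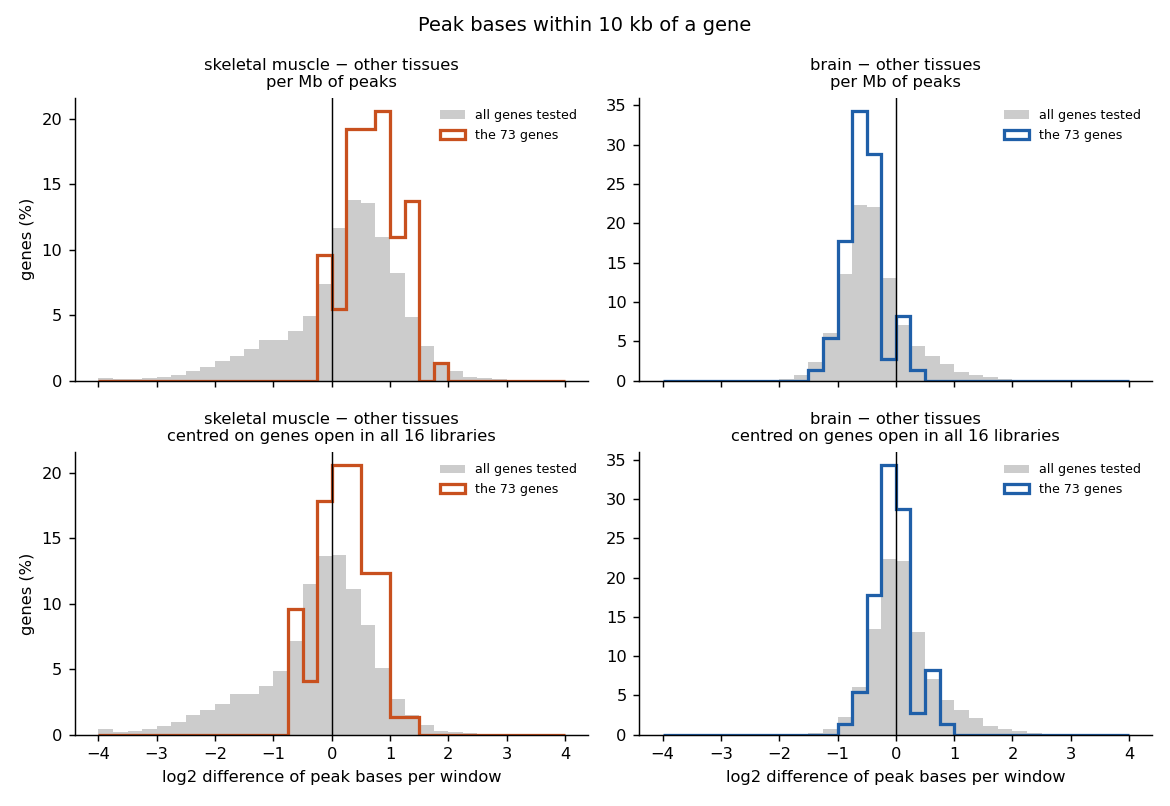
Share of genes (y axis, %) by log2 difference of peak bases within 10 kb of a gene (x axis), for muscle (left, orange) and brain (right, blue) against other tissues, per Mb of peaks (top) and centred on genes open in all 16 libraries (bottom); grey bars are all 18131 genes tested, with values beyond the axis in the end bins. In muscle the set lies to the right of all genes on both scales (medians 0.73 and 0.38, then 0.24 and -0.11), and in brain both lie close together.

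The difference was spread over all parts of the windows. Summed over the 73 windows, peaks within 2 kb of the genes' own start sites gave 978 and 1151 bases per Mb in muscle, and 336 to 1053 in the 14 other libraries, so the ranges overlapped. Peaks inside the genes but away from any start gave 527 and 601 against 186 to 344. Peaks in the flanks away from any start gave 882 and 945 against 101 to 605. Peaks at the starts of neighbouring genes gave 649 and 720 against 167 to 628. The means in muscle and elsewhere were 1064 and 728 at own starts, 564 and 249 inside the genes, 914 and 389 in the flanks and 684 and 425 at neighbouring starts. The last 3 parts did not overlap between muscle and the other libraries. The same sums over all genes are not given here. On this scale all genes shifted upward in muscle, with a median log2 difference of 0.38 and 19% higher without overlap. The separation therefore cannot be called particular to the set.

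Regions open only in muscle were then located. Peaks of all libraries were joined where they overlapped, which gave 573 regions within 10 kb of the 73 genes, of which 110 had a peak in all 16 libraries. A peak in both muscle libraries and in no other was found in 31 (5.41%). Among regions near any protein-coding gene this share was 2.73%. Of the 31, 6 lay near ATP5SL, whose window covers other genes, and 4 near NDUFS4. The share without these genes is not given here. For the other tissues the number near the set was 1 in cerebellum, 5 in cerebral cortex, 1 in hypothalamus, 5 in adipose, 6 in liver, 5 in lung and 5 in spleen. Cerebellum had 0.175% near the set against 2% near any gene, cortex 0.873% against 1.57% and hypothalamus 0.175% against 0.0627%. Near any gene the share was 0.496% in adipose, 0.857% in liver, 0.809% in lung and 0.903% in spleen, beside 0.873%, 1.05%, 0.873% and 0.873% near the set. No region was open in all 6 brain libraries and no other, where 0.0934% near any gene were. The share of genes with a muscle-only region was not raised: 16 of 73 (21.9%) had one, beside 26.7% of all genes, whose median length is 20.7 kb against 8.81 kb in the set. With peaks at a q-value under 0.0001 the shares came close, at 51 of 350 regions (14.6%) near the set and 13.6% near any gene. Without muscle of P350, 55 regions were counted near the set. A peak in the remaining muscle library then sufficed, so the count could not fall, and the share near any gene is not given here.

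**Figure D4:**
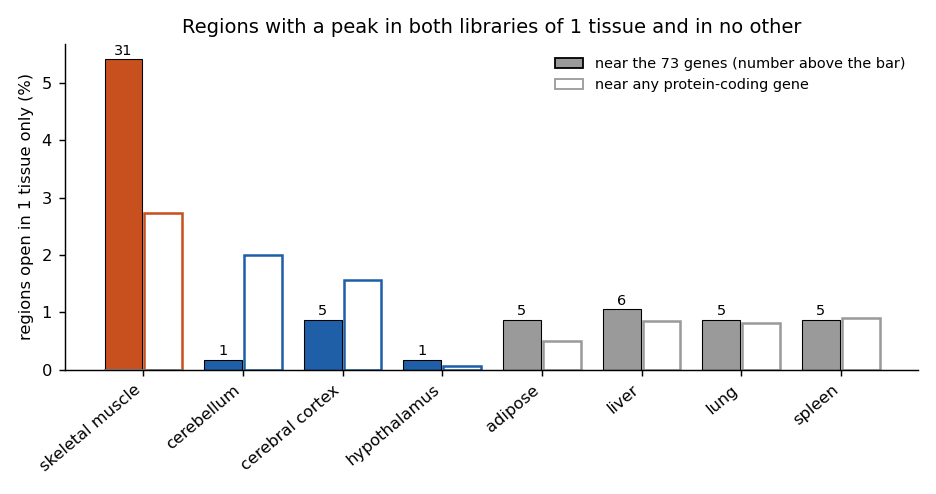
Share of regions (y axis, %) with a peak in both libraries of 1 tissue and in no other, by tissue (x axis), near the 73 genes (filled bars, number of regions above) and near any protein-coding gene (open bars). Muscle stands out near the set, with 31 regions or 5.41% against 2.73%, and cerebellum falls below its open bar. Of the 31, 6 lie near ATP5SL, whose window covers other genes.

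Of the 31 muscle-only regions, 16 lay within introns of the gene, 3 overlapped its coding exons, 9 lay downstream and 3 upstream. For 15 the nearest protein-coding start was that of the gene itself. ATP5SL had 6, NDUFS4, whose loss is known to cause a severe mitochondrial disease, had 4 and NDUFA8 had 3. The strongest by the weaker of its 2 folds lay 3′ of NDUFA8 (chr1:262236159-262236868), with folds of 8.61 and 8.77, but 21265 bp from the nearest coding start, that of MORN5. A region 5215 bp upstream of SDHB (chr6:75683326-75683790) had folds of 7.55 and 6.35. Inside NDUFB2 a region of 1836 bp (chr18:9140425-9142260) that reaches a coding exon had folds of 6.21 and 6.40. Inside NDUFB5 an intronic region of 1659 bp, 3833 bp after the most upstream start (chr13:117660244-117661902), had 5.74 and 9.49. Inside ATP5A1 a region of 816 bp around a coding exon (chr1:95742508-95743323) had 5.50 and 7.67. These 5 regions were picked by fold, so their high folds follow from the choice. Among the 31 the weaker fold went down to 1.78, in ATP5SL. The promoter peaks in muscle had folds of 6.79 and 7.38 for NDUFB2, 5.76 and 7.29 for NDUFB5, and 5.98 and 6.69 for ATP5A1.

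**Figure D5:**
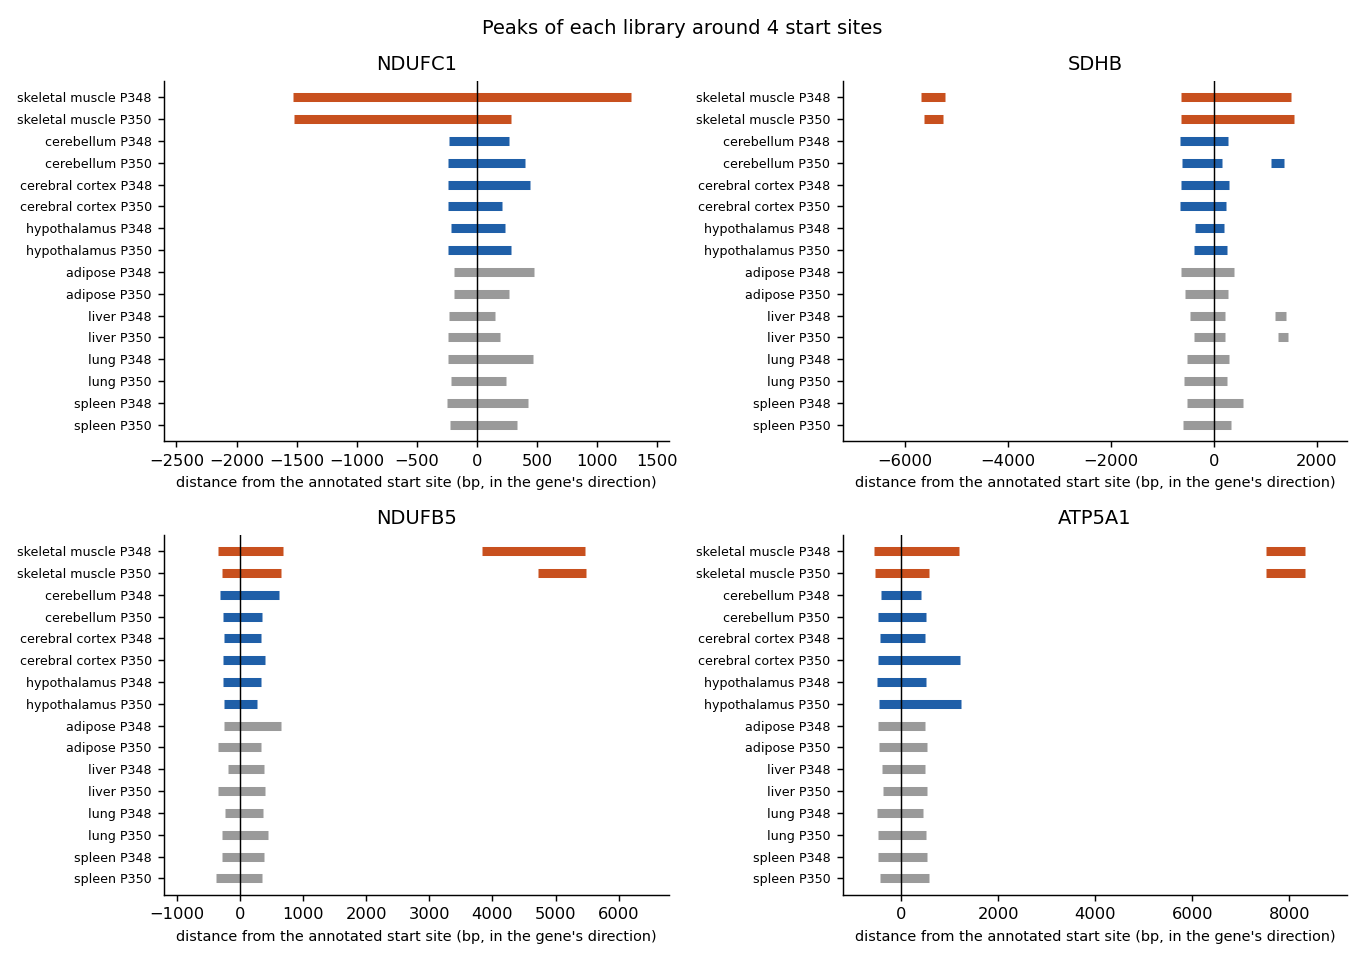
Peaks of each of the 16 libraries (rows; muscle orange, brain blue, other tissues grey) by distance in bp from the annotated start (x axis, in the direction of the gene) for NDUFC1, SDHB, NDUFB5 and ATP5A1. In muscle the NDUFC1 peak extends upstream, and the SDHB peak extends downstream with a further region 5215 bp upstream. NDUFB5 and ATP5A1 carry in muscle a region 3833 and 7512 bp after the start that no other library has.

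The middle 200 bases of these 5 regions are shown on the plus strand of Sscrofa11.1, with matches to the MEF2 motif, the muscle E box or the receptor element in capitals. They were taken from chr1:262236414-262236613 (NDUFA8), chr6:75683459-75683658 (SDHB), chr18:9141243-9141442 (NDUFB2), chr13:117660974-117661173 (NDUFB5) and chr1:95742816-95743015 (ATP5A1, of which 102 bases are coding). Only the NDUFB2 window held a match, 1 muscle E box. Over the 31 regions, the E box lay in 7 of the middle 200-base windows (22.6%), beside 19.4% of all 10606 muscle-only regions of the genome. The receptor element lay in 3 (9.68%, beside 5.69%), and the MEF2 motif in 0 (beside 2.37%).
NDUFA8: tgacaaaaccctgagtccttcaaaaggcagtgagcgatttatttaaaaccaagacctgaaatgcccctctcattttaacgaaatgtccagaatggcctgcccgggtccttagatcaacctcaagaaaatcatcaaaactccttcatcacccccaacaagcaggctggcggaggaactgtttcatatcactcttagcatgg
SDHB: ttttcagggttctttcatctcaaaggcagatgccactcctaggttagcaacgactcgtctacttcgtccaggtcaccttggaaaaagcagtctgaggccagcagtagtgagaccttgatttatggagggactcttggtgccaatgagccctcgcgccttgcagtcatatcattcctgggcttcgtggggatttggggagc
NDUFB2: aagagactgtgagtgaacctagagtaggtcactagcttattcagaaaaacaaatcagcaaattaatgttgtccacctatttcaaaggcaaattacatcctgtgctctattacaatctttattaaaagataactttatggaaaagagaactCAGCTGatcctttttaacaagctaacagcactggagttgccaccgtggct
NDUFB5: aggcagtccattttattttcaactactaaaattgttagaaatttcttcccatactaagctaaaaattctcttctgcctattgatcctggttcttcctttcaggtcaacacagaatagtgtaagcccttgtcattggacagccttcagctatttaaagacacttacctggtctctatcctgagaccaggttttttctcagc
ATP5A1: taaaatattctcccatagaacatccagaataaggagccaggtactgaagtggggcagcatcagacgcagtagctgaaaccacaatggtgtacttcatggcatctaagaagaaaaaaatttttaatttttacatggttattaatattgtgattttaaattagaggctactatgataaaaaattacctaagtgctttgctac

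The 3 brain tissues were compared with the other 5. Promoter fold, centred, was higher in brain for 11 of 69 genes (15.9%) and lower for 13 (18.8%, limma adjusted p under 0.05), beside 19% and 13% of all genes. The median log2 difference was -0.04, and 0.03 for all genes. NDUFB11, an X-linked accessory subunit of the membrane arm, had the largest difference. Its folds in brain ran from 6.06 in cerebellum of P348 over a median of 8.90 to 9.35 in cortex of P350, and in the other 10 libraries from 4.45 over 5.64 to 7.92 in liver of P348. Centred values did not overlap between the groups (0.64 ± 0.07 SE, limma adjusted p = 1.55e-05). Its peak was 456 to 841 bp wide in brain, and 1246 and 1236 bp in muscle (width, limma, adjusted p = 0.0508). ATP5SL, NDUFAB1, NDUFB10 and the core subunit NDUFS8 were also higher, by 0.40 to 0.50.

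The lower genes in brain included NDUFAF1, NDUFAF5, NDUFA3, SDHD and ATP5J2. NDUFAF1 had folds of 3.49 to 5.40 in brain and 4.11 to 8.49 elsewhere (-0.45 ± 0.06 SE, limma adjusted p = 0.000123). SDHD had 3.10 to 6.90 in brain and 5.20 to 10.4 elsewhere, with the 10.4 in muscle of P350 (-0.40 ± 0.07 SE, limma adjusted p = 0.000962). The groups overlapped for both. For width, 1 gene rose and 1 fell in brain, beside 3.54% and 3.56% of all genes. NDUFC2, which sits beside NDUFC1 in complex I, rose (0.47 ± 0.08 SE, limma adjusted p = 0.00723). Its peak averaged 1120 bp in brain and 821 bp in adipose, liver, lung and spleen, but 1266 bp in muscle. NDUFV1, the core subunit that binds NADH, fell by 0.62 ± 0.13 (SE, limma adjusted p = 0.0232), with 234 to 814 bp in brain and 720 to 1286 bp elsewhere, and lost its call without either cortex library (adjusted p = 0.0639 and 0.0507) or hypothalamus of P350 (0.0621). With tissue means as units 0 genes of the set passed for fold or width, but hardly any gene did (at most 0.0983% of all genes for fold and 0.0715% for width), so this says nothing about these members.

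Peak bases within 10 kb were lower in brain for 47 of the 73 genes (64.4%) and higher for 0, beside 49.4% and 7.79% of all genes. The median log2 difference was -0.55, close to the -0.45 of all genes. Centred, 6 genes (8.22%) were lower and 5 (6.85%) higher, beside 8.6% and 18.3% of all genes. The lower genes after centring included SDHA, ATP5E, the epsilon subunit of the F1 head, and NDUFB2, with centred log2 differences of -0.77, -0.68 and -0.47. Uncentred means in brain and elsewhere were 31.9 and 82.4 bases per Mb for SDHA, 13.9 and 35.3 for ATP5E, and 11.7 and 30.6 for NDUFB2. Of the tissues outside brain, muscle held 130, 40.1 and 66.7, and adipose, liver, lung and spleen averaged 70.4, 34.1 and 21.6. The higher genes after centring were SDHAF3, NDUFAF2, NDUFAF4, NDUFS4 and NDUFA12, of which the first 3 encode assembly factors. NDUFAF4 held 4.84 to 32.2 bases per Mb in brain and 6.24 to 13.4 elsewhere, and its centred values did not overlap (0.68 ± 0.13 SE, limma adjusted p = 0.0026). With tissue means as units 0 genes of the set were called, and 0.011% of all genes were lower and 0% higher.

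Other genes of oxidative metabolism were read the same way from lists chosen with earlier results of these data known. Of 13 genes of the citrate cycle, 10 were higher in muscle by peak bases within 10 kb and 0 lower (8 and 0 after centring), beside 32.1% of all genes higher (12.9% after centring). The median log2 difference was 1.29, and 0.38 for all genes. Promoter fold was lower in muscle for 5 of the 12 tested and higher for 0, beside 18.8% and 14.6% of all genes. SUCLA2, a subunit of succinyl-CoA synthetase, held 54.1 bases per Mb in muscle and 12.8 elsewhere (1.77 ± 0.22 SE, limma adjusted p = 3.85e-05). OGDH, which makes succinyl-CoA, held 265 and 69.2 (2.03 ± 0.39 SE, limma adjusted p = 0.00108). Promoter peaks of CS (citrate synthase), IDH3G and MDH2 were wider in muscle, as for CS with 1930 and 807 bp (1.05 ± 0.11 SE, limma adjusted p = 0.000448). These were 3 of the 12 tested (25%), beside 2.84% of all genes.

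Of the list of complex IV and cytochrome c, 7 of 18 symbols were found in the annotation, and 1 (14.3%) was higher in muscle and 0 lower, beside 32.1% of all genes higher. That gene was CYCS, the somatic cytochrome c, with 39.2 bases per Mb in muscle and 12.6 elsewhere (1.37 ± 0.26 SE, limma adjusted p = 0.000971). COX7A1, the muscle form of a small subunit, held 42.9 and 29.1 (0.55 ± 0.23 SE, limma adjusted p = 0.0591), and its liver-type paralog COX7A2 13.2 and 10.8 (limma, adjusted p = 0.479). COX6A1 held 28.3 and 18.6 (limma, adjusted p = 0.0678), and COX6A2 was not matched by symbol. Of 11 regulators of mitochondrial biogenesis, 6 (54.5%) were higher and 0 lower, beside 32.1% and 14.5% of all genes. After centring 2 (18.2%) were higher, PPARGC1B and YY1, and 1 lower, GABPB1, beside 12.9% and 24.3% of all genes. PPARGC1B, a coactivator, held 309 bases per Mb in muscle and 79.8 elsewhere (1.97 ± 0.33 SE, limma adjusted p = 0.000364).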

How the data were processed

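ATAC-seq peak lists of 16 pig libraries were used. Per the submitters' processing notes, Trim Galore 0.4.5, BWA 0.7.17, SAMtools 1.10 and Picard 2.18.17 were run, and the study describes MACS2 broad peaks at a q-value of 0.05 after removal of duplicates, on susScr11 (Sscrofa11.1). The deposited lists are 1 per library, each with its own peaks; the study's accessible regions, called on both animals combined, were not used here. Whether reads were shifted for the transposase is not given in the sources used here. In the deposited files the authors give each peak a fold enrichment (a ratio averaged over the peak) and its −log10 p and −log10 q. The study annotated genes with Ensembl, and RefSeq of the same assembly was used here, also for sequences. Files of cattle were not used.

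Each gene was given its highest promoter peak within 2 kb of a TSS, the width of that peak, and peak bases in the gene plus 10 kb per Mb of all peak bases. Log2 values (pseudocount 5 bases per Mb for windows, genes with a mean under 5 left out) were fitted over all genes with limma 3.58.1 in R 4.3.3, a mean per tissue, and contrasts of tissue means, with Benjamini-Hochberg adjustment. Fold and width were tested in genes with a peak in all 16 libraries, centred on each library's median. Measurements used Python 3.11.15, numpy 2.4.6, pandas 2.3.3 and pysam 0.24.0, and figures matplotlib 3.10.9. Scripts were tested on simulated data. The 2 animals give 2 libraries per tissue, and the p-values measure the spread between them. The same animals supplied all tissues, and the correlation of the P350 minus P348 difference between the 28 pairs of tissues ran from -0.22 to 0.177 (median 0.00648). Tissue means as units, an animal block, other windows, thresholds, scalings and single libraries left out were the alternatives.

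The members and lists were chosen with earlier results of these data known. Genes named in the text are those past the threshold with the largest differences, at most 10 per measure and comparison, those that lack a peak, the 3 highest and 3 lowest folds, the c-ring and NDUFA4 paralogs, the 5 strongest muscle-only regions, and listed genes by the same rule. Head-to-head pairs and printed promoters were picked after their values were seen.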

Additional observations from a re-analysis of the deposited data

How the results depend on the processing

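Shares of all genes tested are given in brackets in this section. The animal as a replicate block, which pairs libraries of 1 animal, changed no count by over 1.5 times. By peak bases 39 genes were higher in muscle (31%) and 46 lower in brain (48.3%). Counts of genes higher and lower in muscle by peak bases near the gene were 16 and 4 centred (12.9% and 24.3%). They were 17 and 3 centred with the block (12.5% and 23.8%), and 2 and 11 with q under 0.0001 (9.98% and 14%). The higher count was 23 of 73 genes with lists of equal length (20.9%) and 25 with 2 kb (28.1%). With tissue means as units it was 0 (1.01%), where few genes pass at all. The lower count was 2 with 50 kb (19.4%). In brain the higher and lower counts were 5 and 6 centred (18.3% and 8.6%), and 4 and 6 centred with the block (17.7% and 8.27%). The lower count was 24 of 73 genes with equal lists (33.1%), 7 with q under 0.0001 (13.4%) and 23 without division by the total (26.6%). It was 28 with 2 kb (42.1%) and 0 with tissue means (0.011%), and the higher count was 2 with 50 kb (11.7%). Fold in muscle gave 10 higher and 5 lower without centring (29.3% and 5.47%), and 0 and 1 with tissue means (0.5% and 0.375%). Fold in brain gave 7 lower of 43 tested with q under 0.0001 (15.7% of all genes), and 0 higher and 0 lower with tissue means (0.0983% and 0%). Width in muscle gave 8 wider without centring (6.39%) and 1 with tissue means (0.286%). Width in brain gave 2 narrower within 500 bp (4.21%), with equal lists (4.76%), with the nearest peak (3.94%) and without the filter (4.38%). It gave 10 narrower without centring (11.8%) and 0 with tissue means (0.0715%). It gave 0 wider with q under 0.0001 (5.27%) or tissue means (0.0447%). The mean promoter share was 95% with q under 0.0001. Muscle-only regions numbered 70 within 50 kb (3.7% of regions, against 2.52% near any gene). With q under 0.0001 they numbered 51 (14.6% against 13.6%). These alternatives for the regions were chosen after seeing the data. ATP5A1 and SDHA turned to -0.31 and -0.03 in muscle with q under 0.0001. With single libraries left out, counts ran from 14 to 44 higher in muscle and 37 to 54 lower in brain by peak bases, from 1 to 6 higher and 6 to 18 lower in muscle and 10 to 13 higher and 7 to 16 lower in brain by fold, and from 2 to 5 wider in muscle, 1 to 2 wider and 0 to 5 narrower in brain. The promoter share ran from 99.6% to 99.9%. The muscle-only regions ran from 31 to 55, but leaving out a library only loosens their rule, so this count could not fall. For single named genes, 711 leave-one-out values kept direction and call and 25 lost the call, and 352 other values kept both, 81 lost the call and 2 reversed. The cause of these changes was not tested. The ranges with single libraries left out are given without the share of all genes, so a change particular to the set cannot be read from them. Read depth was not analysed here, and a missing peak cannot be read as closed chromatin.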

Other observations

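Regions open in both libraries of 1 tissue other than muscle and in no other library were few near these genes, and most lay in introns or flanks. NDUFAF6, an assembly factor of complex I, held 2 such regions in lung, 6649 and 14854 bp from its start, with folds of 3.99 and 5.10, and 3.87 and 5.75 (P348 and P350). It held another in cerebral cortex, 22604 bp from its start, with 4.31 and 4.02. In liver, an intronic region 5870 bp from the start of NDUFAF5, also an assembly factor, had folds of 8.13 and 3.79. A region 1201 bp upstream of NDUFS4 was open in liver only, with 4.35 and 3.30. In spleen, 2 regions lay in ATP5L, 6109 and 9603 bp from its start, with 4.65 and 3.75, and 3.17 and 2.67. In adipose, a region in an intron of SDHB, 13209 bp from its start, had 2.65 and 2.63. The only region of hypothalamus lay 5456 bp from the start of ATP5I within PDE6B, with 2.59 and 2.70. These genes were chosen after their values were seen.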
